A study of Mus musculus with 4 samples.

Results

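The core circadian clock genes of the liver are described here as the 10 genes Arntl, Clock, Npas2, Per1, Per2, Per3, Cry1, Nr1d1, Nr1d2 and Dbp, chosen by name and found by their Ensembl identifiers among the 46603 genes of a liver RNA-seq count table. The rule uses their names and no measured value. Total liver RNA was sequenced from 4 male mice, 1 library per mouse, to compare hepatocyte-specific HuR knockout livers with control livers under metabolic stress. All 4 mice were C57BL/6 J animals carrying HuR flox/flox alleles, so the controls were floxed too, and all had free access to a Western diet and sugar water (fructose and glucose) for 4 weeks. The 2 HuR hKO mice (mice 3 and 4) received AAV8-TBGP-Cre by tail vein, in which the thyroxine-binding globulin promoter drives Cre recombinase in hepatocytes, and the 2 control mice (mice 1 and 2) received AAV8-TBGP-GFP. The mice were matched for age, but the age and the time of day at which the livers were taken are not given in the sources used here. Cells other than hepatocytes should keep HuR in both groups, and in whole liver RNA fewer cells of a type cannot be told apart from less RNA per cell.

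The circadian clock is a feedback loop of transcription that runs in most cells of the body. BMAL1 (encoded by Arntl) pairs with CLOCK or NPAS2 and activates the Per and Cry genes, whose proteins then block that pair, and it also activates Nr1d1 and Nr1d2, whose products REV-ERB alpha and beta silence Arntl in turn. Dbp is an output of the loop that carries the rhythm to metabolic genes. In liver, Arntl, Npas2 and Clock peak at nearly the opposite time of day from Dbp, Nr1d1 and the Per genes, with Cry1 late, and feeding time can shift them all. Each mouse therefore gives a single reading of the clock. The place of these livers in the daily cycle was not estimated here.

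The clock genes talk to one another through short promoter motifs, so the promoter windows of the members that held one of the motifs searched are shown. Each window is a RefSeq sequence on GRCm38.p6 of 300 bases, from 250 before the transcription start to 50 after it, and 9 of the 10 genes had an entry, with 13 windows. Per2 had none. Both strands were searched for the E-box CACGTG that CLOCK and BMAL1 bind, the D-box TTANGTAA that DBP binds, the RORE TAGGTCA that REV-ERB proteins bind, and the cAMP response element TGACGTCA. These motifs do not overlap one another in the windows shown. Capitals mark the motif, first the E-box windows of Per1 (chr11:69098699-69098998, plus strand) and Cry1 (chr10:85185005-85185304, minus strand), then the D-box window of Per3 (chr4:151044616-151044915, minus strand) and the RORE window of Arntl (chr7:113207261-113207560, plus strand), each 5′ to 3′ on the gene's strand.
Per1: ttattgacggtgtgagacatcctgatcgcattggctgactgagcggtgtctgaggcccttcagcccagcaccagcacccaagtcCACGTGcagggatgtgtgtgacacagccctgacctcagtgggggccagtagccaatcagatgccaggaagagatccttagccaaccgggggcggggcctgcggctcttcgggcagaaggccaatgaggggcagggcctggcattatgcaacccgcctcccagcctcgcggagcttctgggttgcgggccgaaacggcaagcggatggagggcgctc
Cry1: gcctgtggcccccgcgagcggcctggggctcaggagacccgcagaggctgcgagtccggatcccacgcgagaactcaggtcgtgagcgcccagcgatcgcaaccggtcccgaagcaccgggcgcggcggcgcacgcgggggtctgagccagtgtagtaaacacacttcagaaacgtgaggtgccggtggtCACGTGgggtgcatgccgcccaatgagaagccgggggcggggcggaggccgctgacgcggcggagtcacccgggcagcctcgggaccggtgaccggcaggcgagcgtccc
Per3: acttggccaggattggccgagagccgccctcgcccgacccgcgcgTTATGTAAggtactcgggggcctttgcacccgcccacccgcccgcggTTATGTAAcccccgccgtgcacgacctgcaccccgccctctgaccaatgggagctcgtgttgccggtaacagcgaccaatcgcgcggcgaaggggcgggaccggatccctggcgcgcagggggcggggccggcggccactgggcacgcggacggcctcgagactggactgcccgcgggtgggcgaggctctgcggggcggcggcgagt
Arntl: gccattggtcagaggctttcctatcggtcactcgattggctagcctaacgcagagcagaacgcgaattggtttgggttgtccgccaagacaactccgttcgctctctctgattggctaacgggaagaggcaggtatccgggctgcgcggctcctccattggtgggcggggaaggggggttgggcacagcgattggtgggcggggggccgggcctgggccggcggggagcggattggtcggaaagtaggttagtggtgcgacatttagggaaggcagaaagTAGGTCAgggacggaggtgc
The E-box began 166 bases before the start in Per1 and 60 before it in Cry1. It was present in 7.15% of the 32851 mouse promoter windows of this length. The D-box occurred at 2 places in the Per3 window, 205 and 158 bases before the start, and 2.323% of all windows held one. The RORE of Arntl lay 31 bases after the start, against a share of 2.606% of windows. No member's window held the cAMP response element, which 1.79% of windows held. These matches describe letters in a short window and do not show binding.

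The libraries held between 13032095 and 19715577 counts on genes, the largest in HuR hKO mouse 4. Levels are given as CPM (counts scaled to a common library size) after edgeR's TMM scaling for library size, as mean ± SD of 2 mice, and a count of 0 would allow up to 3 counts, or 0.152 to 0.230 CPM, counting error only. Elavl1, the gene encoding HuR (chr8:4285382-4325413, minus strand), was read first as a check of the labels. Its counts were 377 and 347 in the control livers and 541 and 648 in those labelled HuR hKO. The targeted gene was thus not lower, at 27.1 ± 1.74 against 36.0 ± 2.36 CPM. Its log2 fold change was 0.41 (standard error 0.135, 95% interval 0.10 to 0.72, unadjusted p = 0.016, adjusted p = 0.545, edgeR quasi-likelihood test with Benjamini-Hochberg adjustment). Both livers labelled HuR hKO, at 37.7 and 34.4 CPM, lay above both controls, at 28.3 and 25.9 CPM. Of all genes tested, 38.1% had groups that did not overlap, and 7.43% had an unadjusted p under 0.05. The exons of Elavl1 share 204 bases (2.0% of their length) with Ccl25 on the other strand, which had 33 to 57 counts. Every direction below is that of the labels, "HuR hKO" standing for the libraries labelled HuR hKO. Hepatocyte markers dominated all 4 livers, with a summed level of 68989 to 76567 CPM over 9 genes, and the neutrophil marker Ly6g was at 0 throughout.

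The 10 clock genes kept the same order of abundance in every liver. Per kilobase of exon, which makes levels comparable between genes, Dbp stood first at a mean of 83.2 CPM per kb over the 4 mice (range 65.9 to 91.8). Nr1d1 followed at 32.8 (27.6 to 42.1) CPM per kb and Nr1d2 at 14.9 (14.1 to 16.3). The Per genes formed the middle of the order, with Per1 at 8.17, Per2 at 6.37 and Per3 at 3.98 CPM per kb. Cry1 at 2.00 CPM per kb and Clock at 1.45 came next and were the only neighbours whose ranges overlapped. At the bottom stood the activators Arntl at 0.147 and Npas2 at 0.0631 CPM per kb. All 10 genes held the same rank in all 4 mice, as the plot of levels per kilobase shows.

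**Figure D1:**
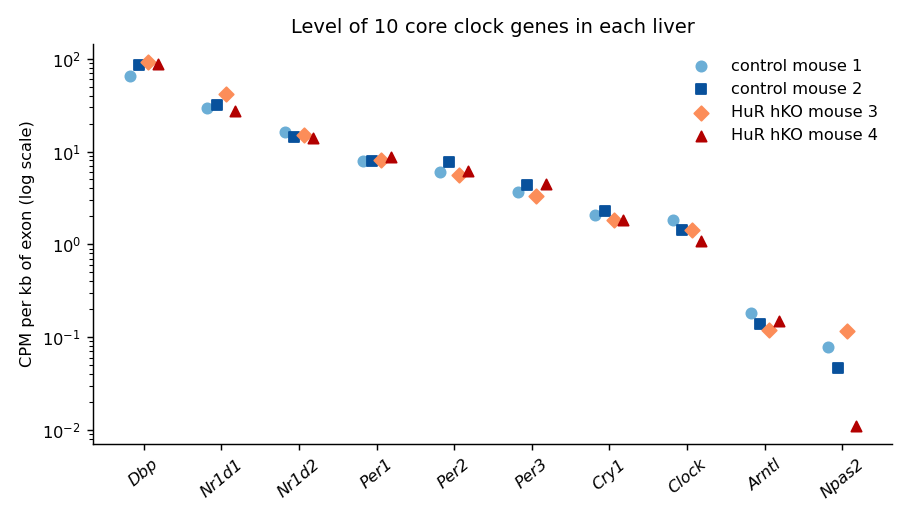
Level of each core clock gene in each liver, in CPM per kilobase of exon on a log axis, with genes ordered by their mean and 1 symbol per mouse. Every gene kept its rank in the 4 mice, from Dbp at 65.9 to 91.8 down to Npas2 at 0.0111 to 0.116.

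The balance of output and activator was compared between livers by ratios. The ratio of Dbp to Arntl, taken per kilobase, was 366 and 622 in the control livers and 762 and 600 in the HuR hKO livers. The groups overlapped in this ratio, because control mouse 2 lay above HuR hKO mouse 4. The ratio of Nr1d1 to Arntl was 164 and 231 against 350 and 186, which overlapped as well. Dbp to Clock gave 35.7 and 60.0 in the controls and 64.4 and 82.7 in the HuR hKO livers, without overlap. This ratio could not overlap, because Dbp was higher and Clock lower in both HuR hKO livers than in both controls. It therefore adds nothing to the values of the 2 genes. Taken singly, 38.1% of all genes tested had groups that did not overlap.

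None of the clock genes tested passed the threshold for a difference between HuR hKO and control livers. Of the 10, 9 passed edgeR's filter on low counts and were tested, and 0 had an adjusted p under 0.05 in its quasi-likelihood test, where 0.0231% of the 13001 genes tested did. Their adjusted p-values ran from 0.684 to 0.976, and the DESeq2 Wald test and limma-voom called 0 of them as well. At an unadjusted p under 0.05 the count was also 0, against 7.43% of all genes (4.04% higher and 3.39% lower). No member met a fold of at least 1.8 with an unadjusted p under 0.05, which 2.12% of genes met. The difference was positive for 3 members and negative for 6, with a median log2 fold change of -0.07 beside 0.002 for all genes tested. For 4 of the 9 the groups did not overlap, as for 38.1% of all genes. With 2 mice per group no exact permutation test can go below p = 0.333, so these p-values lean on the spread that edgeR shares across genes.

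Failing the threshold does not make the levels equal, and the intervals state how large a difference these 4 livers leave room for. The 95% interval stayed within 1 on the log2 scale, a doubling or halving, for 8 of the 9 clock genes tested, against 75.1% of all genes. Arntl was the exception, at a level where each liver gave no more than 21 counts. In simulated counts of these libraries the test recovered 65.2% of genes changed by 2-fold and 95.1% of those changed by 4-fold. The simulation changed 200 genes drawn from all levels, with a spread set by level alone and none particular to a gene. These shares are thus not specific to the clock genes and may be higher than in the real livers.

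**Figure D2:**
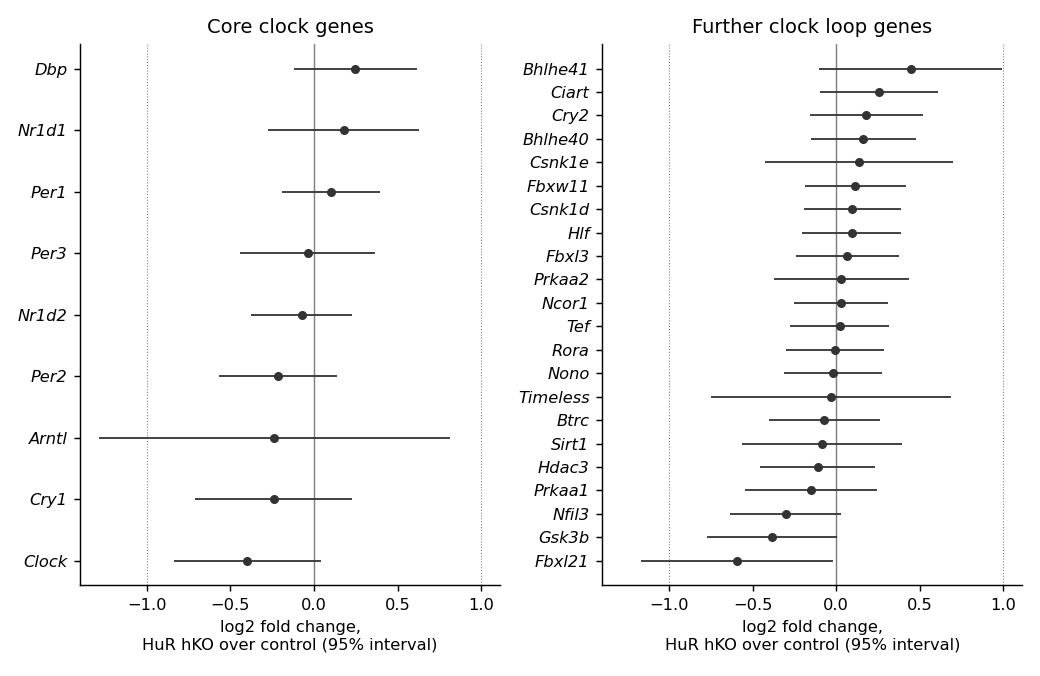
Log2 fold change of HuR hKO over control with its 95% interval (edgeR quasi-likelihood test, n = 2 mice per group), for the 9 core clock genes tested at left and further genes of the clock loop at right. Dotted lines mark -1 and 1. The intervals of the core genes all include 0, and among them only that of Arntl passes a dotted line, the one at -1.

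Among the activators, Arntl (ENSMUSG00000055116, chr7:113207465-113314126, plus strand) encodes BMAL1, without which the clock stops. It had 18 and 14 counts in the control livers and 13 and 21 in the HuR hKO livers, or 1.35, 1.04, 0.906 and 1.11 CPM. HuR hKO mouse 4 lay between the controls and mouse 3 below them. The means were 1.20 ± 0.218 and 1.01 ± 0.147 CPM (log2 fold change -0.24, standard error 0.456, 95% interval -1.28 to 0.81, adjusted p = 0.934, edgeR quasi-likelihood test). The log2 fold change was -0.05 without control mouse 1 and -0.41 without control mouse 2. Counting error alone spans 0.802 to 2.14 CPM in control mouse 1 and 0.482 to 1.55 CPM in HuR hKO mouse 3 (exact Poisson intervals). A difference of the size seen was thus not detectable at this depth.

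Clock (ENSMUSG00000029238, chr5:76209868-76304792, minus strand), the partner of BMAL1, showed the largest difference of the members. Its counts of 337, 265, 281 and 278 came to 25.3 and 19.8 CPM in the controls and 19.6 and 14.7 CPM in the HuR hKO livers. Both HuR hKO livers lay below both controls, though mouse 3 only just below control mouse 2. The means of 22.5 ± 3.94 and 17.2 ± 3.42 CPM gave a log2 fold change of -0.40 (standard error 0.192, 95% interval -0.84 to 0.04, adjusted p = 0.684, edgeR quasi-likelihood test). That is a fold of 0.759, with an interval from 0.559 to 1.03. Its unadjusted p of 0.0707 in edgeR's test became 0.0199 without control mouse 2 and 0.0297 without HuR hKO mouse 3, with log2 fold changes of -0.57 and -0.63, and 0.321 without control mouse 1 and 0.395 without HuR hKO mouse 4, with -0.22 and -0.20. The adjusted p stayed at 0.356 or above.

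Npas2 (ENSMUSG00000026077, chr1:39193731-39363236, plus strand), which can stand in for CLOCK, was close to the limit of counting. Its 5, 3, 8 and 1 counts did not pass the filter, and no test was made in the main fit. Without the filter its log2 fold change was -0.07 (adjusted p = 0.987, edgeR quasi-likelihood test). The highest and the lowest level, 0.557 and 0.053 CPM, were both in the HuR hKO group. Their exact Poisson intervals of 0.241 to 1.1 and 0.00134 to 0.295 CPM overlapped.

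The 3 Period genes are the brakes of the loop. Per1 (ENSMUSG00000020893, chr11:69095217-69109960, plus strand) is the Period gene that also responds quickly to hormones and cAMP. It had 596 and 590 counts in the controls and 659 and 932 in the HuR hKO livers, or 44.8, 44.0, 45.9 and 49.4 CPM. Both HuR hKO livers were above both controls, although they differed more from each other than mouse 3 did from the controls. Means of 44.4 ± 0.562 and 47.7 ± 2.48 CPM gave a log2 fold change of 0.10 (standard error 0.127, 95% interval -0.19 to 0.40, adjusted p = 0.888, edgeR quasi-likelihood test). With a mouse left out the log2 fold change lay between 0.05 and 0.14. Its values spanned 0.17 on the log2 scale over the 4 mice, the least of the members.

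Per2 (ENSMUSG00000055866, chr1:91415982-91459324, minus strand), which is induced by both clock and systemic cues in liver, had 473 and 599 counts in the controls and 473 and 679 in the HuR hKO livers. These came to 35.5, 44.7, 33.0 and 36.0 CPM, with control mouse 2 above the other three livers and control mouse 1 between the HuR hKO livers. The means were 40.1 ± 6.45 and 34.5 ± 2.15 CPM (log2 fold change -0.22, standard error 0.154, 95% interval -0.57 to 0.14, adjusted p = 0.791, edgeR quasi-likelihood test). Without control mouse 1 its log2 fold change was -0.39, with an unadjusted p of 0.0375 and an adjusted p of 0.678 in edgeR's test, and without control mouse 2 it was -0.04, with an unadjusted p of 0.812.

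Per3 (ENSMUSG00000028957, chr4:151003652-151044665, minus strand) is rhythmic in liver but is not needed for the loop to run. Its counts were 472, 564, 462 and 816, or 35.5, 42.1, 32.2 and 43.3 CPM. The HuR hKO livers held both the lowest and the highest level, with the controls between them. The log2 fold change was -0.04 (standard error 0.175, 95% interval -0.44 to 0.37, adjusted p = 0.976, edgeR quasi-likelihood test) on means of 38.8 ± 4.66 and 37.7 ± 7.83 CPM.

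Cry1 (ENSMUSG00000020038, chr10:85131700-85185064, minus strand), a repressor of CLOCK and BMAL1 that acts late in the cycle, had 91 and 102 counts in the controls and 87 and 116 in the HuR hKO livers. After scaling, these were 6.84 and 7.61 CPM against 6.06 and 6.15 CPM. The HuR hKO livers were nearly alike and lay below both controls. The group means were 0.24 apart on the log2 CPM scale, more than the mice of either group (0.15 in the control group and 0.02 in the HuR hKO group). The log2 fold change was -0.24 (standard error 0.204, 95% interval -0.71 to 0.23, adjusted p = 0.837, edgeR quasi-likelihood test) on means of 7.22 ± 0.543 and 6.11 ± 0.0628 CPM. The direction, like those of Arntl, Per2, Per3 and Nr1d2, turned when counts were left unscaled for library size, a setting that moved the median of all genes to 0.31 on the log2 scale. Relative to that median, the value for Cry1 was again -0.24. With a mouse left out it lay between -0.16 and -0.33.

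The REV-ERB genes are the silencers of Arntl, and in liver they also restrain genes of lipid synthesis. Nr1d1 (ENSMUSG00000020889, chr11:98767932-98775333, minus strand) had 1206 and 1322 counts in the controls and 1859 and 1600 in the HuR hKO livers, or 90.6, 98.6, 129.5 and 84.8 CPM. HuR hKO mouse 3 stood above the controls and mouse 4 below them. Among the members tested this gene had the widest gap between mice of one group, 0.61 on the log2 scale between the HuR hKO livers. The means of 94.6 ± 5.62 and 107.2 ± 31.6 CPM gave a log2 fold change of 0.18 (standard error 0.196, 95% interval -0.27 to 0.63, adjusted p = 0.874, edgeR quasi-likelihood test). Mouse 3 decided its direction, since the log2 fold change was -0.17 without that mouse and 0.45 without mouse 4. Its exons share 263 bases (8.5% of their length) with Thra on the opposite strand, which had 194 to 298 counts.

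Nr1d2 (ENSMUSG00000021775, chr14:18204054-18239127, minus strand) encodes REV-ERB beta. It had 1171, 1040, 1167 and 1434 counts, or 88.0, 77.6, 81.3 and 76.0 CPM. HuR hKO mouse 3 lay between the controls, and mouse 4 was slightly below both. Means of 82.8 ± 7.39 and 78.7 ± 3.73 CPM gave a log2 fold change of -0.07 (standard error 0.131, 95% interval -0.38 to 0.23, adjusted p = 0.928, edgeR quasi-likelihood test). The fold of 0.95 had an interval from 0.771 to 1.17.

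Dbp (ENSMUSG00000059824, chr7:45705088-45710203, plus strand), the PAR bZip activator that passes the rhythm to detoxification and metabolic genes, was the most abundant member per kilobase. It had 2623 and 3464 counts in the controls and 3943 and 5011 in the HuR hKO livers. In CPM these were 197.1 and 258.3 against 274.7 and 265.7. Control mouse 1 was lower than the other three livers, which were close together. The groups did not overlap, with means of 227.7 ± 43.3 and 270.2 ± 6.39 CPM and a log2 fold change of 0.25 (standard error 0.160, 95% interval -0.12 to 0.61, adjusted p = 0.768, edgeR quasi-likelihood test). Control mouse 1 carried most of this difference, which was 0.05 on the log2 scale without it and 0.46 without control mouse 2. Dbp shares 539 exon bases (18.0% of its exon length) with Sphk2 on the opposite strand, which had 661, 712, 729 and 1185 counts. The use of strand in counting is not given in the sources used here, so reads of this stretch cannot be told apart.

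**Figure D3:**
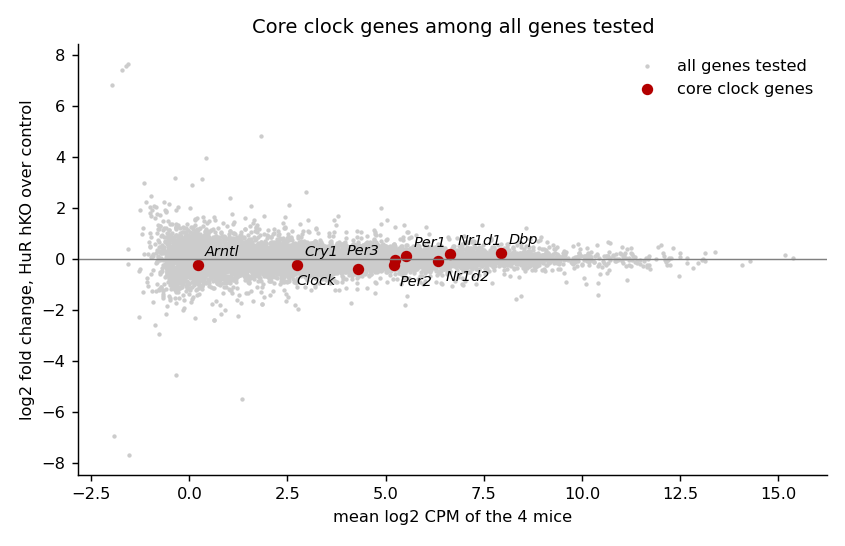
Log2 fold change of HuR hKO over control against mean log2 CPM of the 4 mice for the 13001 genes tested (grey), with the 9 core clock genes tested in red. The clock genes lie between -0.40 and 0.25, inside the cloud of all genes.

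Differences within and between groups were set side by side for the 9 members tested. The median absolute difference was 0.25 on the log2 scale between the control mice, 0.13 between the HuR hKO mice and 0.21 between the group means. Over all genes tested the same medians were 0.22, 0.20 and 0.16. The clock genes also spanned a like range over the 4 livers, with a median of 0.44 for the members and 0.44 for all genes.

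The members were also read as the opposing hands of the clock, Arntl, Clock, Npas2 and Cry1 on one side and the Per genes, Nr1d1, Nr1d2 and Dbp on the other, by the mean of their log2 CPM centred on the 4 mice. The Arntl side gave 0.30 and 0.01 in the controls and 0.15 and -0.47 in the HuR hKO livers. The low value of mouse 4 rests largely on the 1 count of Npas2, since without that gene the side gave 0.24, 0.05, -0.13 and -0.16. The opposite side gave -0.09, 0.06, 0.02 and 0.01, a mean over members that went both ways, such as Nr1d1 from -0.23 to 0.38 and Dbp from -0.32 to 0.15. The difference of the sides, -0.39, 0.05, -0.13 and 0.47, overlapped between the groups. Without Npas2, a choice made after its counts were seen, it was -0.33, 0.01, 0.15 and 0.17, and neither this difference nor the Arntl side overlapped between the groups. These are descriptions of 4 livers, without a test.

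Beyond the 10 members, the loop holds their paralogs, kinases, ubiquitin ligases and cofactors. Of 25 such genes, 23 were tested, and 0 had an adjusted p under 0.05 in edgeR's quasi-likelihood test, the DESeq2 Wald test or limma-voom, the edgeR values running from 0.652 to 0.994. At an unadjusted p under 0.05, 0 were higher and 1 lower, against 4.04% and 3.39% of all genes. Their median log2 fold change was 0.02, with 12 positive and 11 negative. Arntl2 (12, 8, 5 and 9 counts) and Rorb (0 counts in all livers) were too low to test.

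The 1 lower gene was Fbxl21, a ubiquitin ligase subunit that acts on CRY proteins, with 65, 73, 52 and 61 counts. Its level was 5.16 ± 0.395 CPM in controls and 3.43 ± 0.275 CPM in HuR hKO livers, without overlap (log2 fold change -0.59, standard error 0.25, adjusted p = 0.652, edgeR quasi-likelihood test). Tef, a close relative of Dbp, was nearly flat at 0.02 on the log2 scale, and Hlf, another of that family, was at 0.09. Cry2, the paralog of Cry1, had a log2 fold change of 0.18.

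Some genes through which the clock reaches liver metabolism showed larger differences than the clock genes themselves. Of 25 rhythmic liver output genes, all tested, 3 were higher and 1 lower at an unadjusted p under 0.05 (4.04% and 3.39% of all genes), 2 met the 1.8-fold rule (2.12% of all genes), and 0 passed the adjusted threshold in edgeR's test or limma-voom, against 1 in the DESeq2 Wald test. Their median log2 fold change was 0.02. Rgs16, a feeding-responsive regulator of G protein signalling, had 3536 and 3158 counts in the controls and 7725 and 11613 in the HuR hKO livers. Both HuR hKO livers, at 538.2 and 615.7 CPM, were far above the controls at 265.7 and 235.5 CPM. Its fold was 2.3, with an interval from 1.81 to 2.92 (log2 fold change 1.20, standard error 0.15, adjusted p = 0.0636, edgeR quasi-likelihood test). Over the alternatives with all 4 mice, the adjusted p of Rgs16 ran from 2.63e-10 in the DESeq2 Wald test to 0.0674 in edgeR's test with DESeq2 size factors. In edgeR's test it was 5.41e-05 without the filter and 0.00972 without scaling. With a mouse left out the log2 fold change of Rgs16 lay between 1.10 and 1.28.

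Cdkn1a, the cell cycle inhibitor p21, which REV-ERB alpha represses, had 73, 77, 142 and 261 counts. Its level was 5.61 ± 0.181 against 11.9 ± 2.79 CPM (log2 fold change 1.08, standard error 0.223, adjusted p = 0.207, edgeR quasi-likelihood test). Over the alternatives in edgeR its adjusted p ran from 0.000724 without scaling, past the threshold as was 0.00859 without the filter, to 0.941 without HuR hKO mouse 4. Cyp7a1, the rate-limiting enzyme of bile acid synthesis, was the lower one, at 116.2 ± 21.8 against 77.2 ± 16.6 CPM (log2 fold change -0.59, standard error 0.19, adjusted p = 0.53, edgeR quasi-likelihood test). Cyp2a5, a detoxification enzyme downstream of DBP, was at 795.2 ± 154 against 1191 ± 342 CPM (adjusted p = 0.617, edgeR quasi-likelihood test), and reads of its close Cyp2a paralogs could be split among them. Single mice moved both, Cyp7a1 from a log2 fold change of -0.38 without control mouse 2 to -0.83 without HuR hKO mouse 4, and Cyp2a5 from 0.26 without HuR hKO mouse 4 to 0.83 without HuR hKO mouse 3, around 0.58 with all 4. Wee1, Nampt and Noct, which the clock drives directly in liver, had log2 fold changes of -0.20, -0.06 and 0.02.

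Feeding is a strong time cue for the liver, so genes of the fed and the fasted state were read beside the clock. On the fed side, all 12 genes were tested, 6 were higher and 0 lower at an unadjusted p under 0.05, and 11 were positive, with a median log2 fold change of 0.45. Of all 13001 genes, 4.04% were higher and 3.39% lower at that p, 6544 were positive and the median was 0.002. Like the other lists, this list was chosen with earlier results of these data known. Its counts describe these livers and give no independent support. None of the 12 fed-side genes passed the adjusted threshold in edgeR's quasi-likelihood test, the smallest value being 0.103. Fasn, the fatty acid synthase, stood at 370.0 ± 24.8 CPM in controls and 666.1 ± 56.7 CPM in HuR hKO livers (log2 fold change 0.85, standard error 0.148, adjusted p = 0.137, edgeR quasi-likelihood test). Acly, which supplies acetyl-CoA for that synthesis, stood at 153.8 ± 1.91 and 270.2 ± 8.93 CPM (log2 fold change 0.81, standard error 0.128, adjusted p = 0.103, edgeR quasi-likelihood test). The chain-elongating enzyme Elovl6 and the carboxylase Acaca followed with log2 fold changes of 0.64 and 0.46. With a mouse left out these ranged widely, Elovl6 from 0.34 without control mouse 1 to 1.01 without control mouse 2 and Acaca from 0.29 without HuR hKO mouse 3 to 0.60 without HuR hKO mouse 4. Over the alternatives the adjusted p ran from 7.04e-05 (DESeq2 Wald test) to 0.491 (edgeR without HuR hKO mouse 3) for Fasn and from 0.000139 (DESeq2 Wald test) to 0.546 (edgeR without HuR hKO mouse 4) for Acly. These 2 fed-side genes were the ones called by the DESeq2 Wald test and by edgeR's test without the filter, with 0.00342 for Fasn and 0.00425 for Acly in the latter.

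Of the 12 genes of the fasting side, 1 was higher and 0 lower at an unadjusted p under 0.05, a count near the 4.04% and 3.39% of all genes. Their log2 fold changes were positive for 10, with a median of 0.16. Fgf21, a hepatokine of fasting and of sugar intake, was the higher one, with 13 and 24 counts in the controls and 47 and 51 in the HuR hKO livers (log2 fold change 1.10, standard error 0.398, adjusted p = 0.574, edgeR quasi-likelihood test), and its log2 fold change was 0.72 without control mouse 1 and 1.601 without control mouse 2. Pck1 and G6pc, enzymes of glucose production, had log2 fold changes of 0.06 and -0.19. The part of feeding in the values of Rgs16 or the clock genes was not tested.

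**Figure D4:**
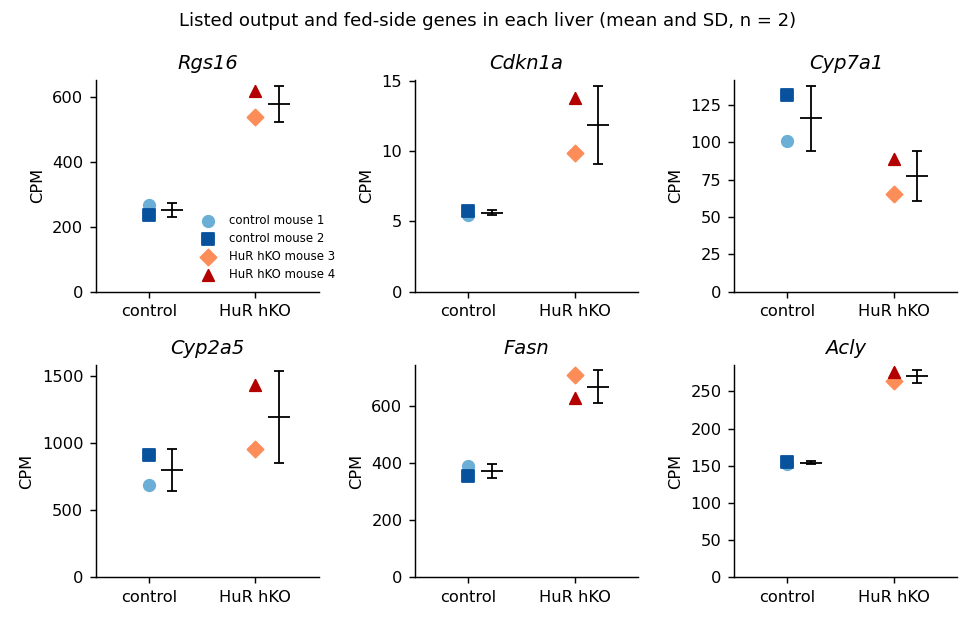
CPM in each liver, with mean and SD of 2 mice beside the symbols, for the 4 named rhythmic output genes and for Fasn and Acly of the fed-side list, each axis starting at 0. These genes were chosen by size of log2 fold change among those with an unadjusted p under 0.05 in edgeR's quasi-likelihood test. The groups do not overlap in any of the 6 panels, with Cyp7a1 lower and the others higher in the HuR hKO livers. Of all genes tested, 38.1% had groups that did not overlap.

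Glucocorticoids and temperature also set the time of the liver clock. Of 16 genes that respond to them, all tested, 2 were higher and 0 lower at an unadjusted p under 0.05 (4.04% and 3.39% of all genes), and the median log2 fold change was 0.01, with 8 positive and 8 negative. Sgk1, a glucocorticoid-induced kinase, was at 14.9 ± 1.45 and 21.2 ± 2.83 CPM (log2 fold change 0.51, standard error 0.164, adjusted p = 0.53, edgeR quasi-likelihood test). The metallothionein gene Mt2 had 38, 228, 211 and 909 counts, so the groups overlapped and control mouse 1 and HuR hKO mouse 4 were far from the others. Its log2 fold change was 1.67, and ran from 0.57 without HuR hKO mouse 4 to 3.47 without control mouse 2. Its adjusted p of 0.653 in edgeR's test became 0.0436 without the filter and 2.2e-09 without scaling, and was 1.0 in the DESeq2 Wald test. Cirbp and Rbm3, the cold-inducible RNA-binding proteins, had log2 fold changes of 0.20 and 0.18. Over the 5 lists together, 88 of 90 genes were tested, 12 were higher and 2 lower at an unadjusted p under 0.05 (4.04% and 3.39% of all genes), and 0 passed the adjusted threshold in edgeR's quasi-likelihood test.

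Markers of other liver cell types were compared because the clock genes are read from whole tissue. Kupffer cell markers summed to 166.8 and 172.8 CPM in controls and 194.8 and 179.4 CPM in HuR hKO livers over 8 genes, none of them at an unadjusted p under 0.05, at which 4.04% of all genes were higher. Endothelial markers gave 157.8 to 205.3 CPM over 6 genes and stellate cell markers 165.9 to 219.6 CPM over 7, of which 0 and 1 (Col1a1) were higher at that p. Cholangiocyte markers gave 27.5 to 52.5 CPM over 5 genes, of which 4 could be tested and 1 was higher (Spp1). T and NK cell markers gave 2.56 to 3.65 CPM over 5 genes (2 tested), B cell markers 1.58 to 5.89 CPM over 4 (3 tested) and neutrophil markers 0.376 to 0.906 CPM over 4 (0 tested), and none of those tested was at that p. Control mouse 1 stood apart in some of these markers, with 162 counts of the cholangiocyte keratin Krt19 against 5, 7 and 34 in the other livers, 35 counts of Krt7 against 8 to 13, 48 of Epcam against 15 to 37, and 275 of Acta2 of the stellate list against 60, 66 and 177. Des at 8.49 CPM and Lrat at 17.6 CPM, of the stellate list, were highest in that mouse as well. The other genes of these lists did not share this. Sox9 at 2.56 CPM and Dcn at 83.9, Reln at 36.0, Pdgfrb at 5.86 and Col1a1 at 9.24 CPM were lowest in that mouse. Spp1 at 31.5 CPM lay between control mouse 2 and the HuR hKO livers. Erythroid transcripts summed to 362.6 and 449.9 CPM in controls and 487.7 and 709.7 CPM in HuR hKO livers, with 3 of 5 genes higher at that p. Their part in the clock gene values was not tested.

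The genes whose profile over the 4 mice came closest to that of Arntl and of Dbp were sought among the 8182 tested genes with a mean log2 CPM of at least 3, by the Euclidean distance of centred log2 CPM. For Arntl they were Pigr at 0.0506, Iigp1 at 0.0569 and Jarid2 at 0.0588, against a median distance of 0.471. For Dbp they were Tmem11 at 0.0194, Fibp at 0.0268 and Rabac1 at 0.0269, against 0.454. Arntl itself, with 13 to 21 counts per liver, lay below the level asked of the compared genes. The exact Poisson intervals of its 4 levels overlapped, so its profile was not resolved beyond counting error. With 4 mice many genes share a profile, so this is a description of these livers only.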

How the data were processed

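Total liver RNA of 4 mice was sequenced, and the authors deposited whole-number read counts per gene for each mouse, not normalized, in 1 table of 46603 Ensembl genes. The submitters' processing notes name RSEM and GRCm38. If RSEM made the table, the deposited counts are rounded estimates that share out reads matching several genes. The aligner, tool versions and use of strand are not given in the sources used here. All columns were matched to mice, with 0 left over, and 46005 identifiers had a symbol. Coordinates, exon lengths and overlaps came from GENCODE M21 on GRCm38, promoters from RefSeq on GRCm38.p6.

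Genes were filtered with edgeR 4.0.16 (minimum 10 counts, total 15; R 4.3.3), scaled by TMM (factors 0.9566 to 1.0395), and 13001 were tested with the quasi-likelihood test and Benjamini-Hochberg adjustment. Log2 CPM used a prior count of 1. Calls were an adjusted p under 0.05, or a fold of at least 1.8 with an unadjusted p under 0.05, the fold and p that the study used. The biological coefficient of variation was 14.6%. Simulated counts of HuR hKO against control (12782 genes, 200 changed, 5 runs) were drawn with a spread set by level alone. On them, 3.35% of calls were false, and 94.6% of the true 2-fold changes fell in their 95% intervals.

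The members and gene lists were chosen with earlier results of these data known. The genes named are the 10 members, Elavl1, the nearest profiles to Arntl and Dbp, and from each list up to 4 genes by size of log2 fold change among those with an unadjusted p under 0.05. Other list genes (Tef, Hlf, Cry2, Wee1, Nampt, Noct, Pck1, G6pc, Cirbp, Rbm3) and the untested Arntl2 and Rorb were chosen after seeing their values. So were the markers Krt19, Krt7, Epcam, Sox9, Spp1, Acta2, Col1a1, Dcn, Reln, Pdgfrb, Des, Lrat and Ly6g. The list genes in the closing section were chosen in the same way. Of 154 listed and marker genes, 1 (Tf) was not matched. Some listed genes are counted but not reported by name here. Alternatives were DESeq2's size factors, no scaling, no filter, at least 10 counts in every sample, the DESeq2 1.42.0 Wald test, limma-voom (limma 3.58.1) and leaving out each mouse. Figures were drawn with matplotlib 3.10.9 in python 3.11.15, tables with pandas 2.3.3 and numpy 2.4.6.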

Additional observations from a re-analysis of the deposited data

How the results depend on the processing

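No alternative gave a core clock gene an adjusted p under 0.05, the smallest of any setting being 0.356 (without control mouse 2). At an unadjusted p under 0.05, 1 clock gene was counted without the filter (Clock) and 1 to 2 with a mouse left out, Nr1d1 without HuR hKO mouse 4 and Dbp without control mouse 2, besides Clock and Per2 as given above. Their adjusted p-values in edgeR's test were 0.605 for Clock, 0.999 for Nr1d1 and 0.43 for Dbp. Each such fit leaves 1 mouse in a group, which is assumed to vary like the other group.

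Without scaling, log2 fold changes turned to 0.087 for Arntl, 0.10 for Per2, 0.30 for Per3, 0.073 for Cry1, 0.23 for Nr1d2, 0.14 for Pigr, 0.061 for Iigp1 and 0.15 for Jarid2, beside the median of 0.31 over all genes. Less that median, Arntl stood at -0.23, Per2 at -0.21, Per3 at -0.01, Cry1 at -0.24 and Nr1d2 at -0.08, against -0.24, -0.22, -0.04, -0.24 and -0.08 with scaling, as unscaled counts carry the libraries' unequal sizes. With a mouse left out, Per3 ranged from -0.27 to 0.14 (0.09 without control mouse 2, 0.14 without HuR hKO mouse 3), Nr1d1 from -0.17 (without HuR hKO mouse 3) to 0.45, and Nr1d2 from -0.16 to 0.0079 (without control mouse 1). For these turns with a mouse left out, the cause was not tested.

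Over all genes, 2 were higher and 1 lower at an adjusted p under 0.05. The numbers were 130 and 25 without scaling, 80 and 81 without the filter and 50 and 35 by the DESeq2 Wald test. Higher genes numbered 1 with at least 10 counts in every sample and 1 by limma-voom. With a mouse left out there were 0 to 30 higher and 0 to 43 lower. The fold rule gave 157 higher and 119 lower, 510 and 61 without scaling, 262 and 264 without the filter, and 119 to 274 and 139 to 232 with a mouse left out. Listed pathway genes lower at an unadjusted p under 0.05 numbered 2, against 1 without scaling, 6 without the filter, 1 by DESeq2 and 1 to 5 with a mouse left out. No paired analysis was possible because the mice are numbered 1 to 4 and the groups share no number. Depth limits Arntl and Npas2 most.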

Other observations

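Of the 10 listed genes with the widest range over the 4 livers, looked up after their values were seen, 4 had groups that did not overlap (Fgf21, Rgs16 and Cdkn1a higher and Hspa1b lower in the HuR hKO livers), and in the others the groups overlapped. Of all genes tested, 38.1% had groups that did not overlap. Among the overlapping ones, Lpin1, which encodes a phosphatidate phosphatase, had 5239 counts in control mouse 1, 643 in control mouse 2, and 1700 and 2310 in the HuR hKO livers, a range of 3.04 on the log2 CPM scale. It passed the adjusted threshold in edgeR's test as higher without control mouse 1 and as lower without control mouse 2. Zbtb16, a glucocorticoid-induced transcription factor, had 333, 72, 135 and 171 counts, again highest in control mouse 1. Alas1, the first enzyme of heme synthesis, had 18639 and 7251 counts in the controls and 14672 and 13285 in the HuR hKO livers. Mt1, a metallothionein, had 92, 549, 571 and 1861 counts, lowest in control mouse 1, as Mt2 was. Control mouse 1 was also the liver with the lowest Dbp.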
